A study of Mus musculus with 15 samples.

Results

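The genes described here encode the proteins of the cytosolic ribosome in mouse islet cells. Every gene whose symbol begins with Rpl or Rps was taken, which gave 99 symbols, and 15 of them were left out, namely 10 S6 kinases, 3 symbols marked as pseudogenes, Rps19bp1, and Rps4y2, which RefSeq lists as a transcribed pseudogene. The 84 remaining genes, of 22924 genes usable in the tables, fall into 46 Rpl genes of the large 60S subunit, 31 Rps genes of the small 40S subunit, and 7 paralogs whose symbols end in l (Rpl3l, Rpl7l1, Rpl10l, Rpl22l1, Rpl36al, Rpl39l and Rps27l). They lie on 19 chromosomes, and each was listed once with a valid estimate in every library.

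RFP-labelled islet cells were sorted by their activity toward a fluorescent aldehyde dehydrogenase (ALDH) substrate, which ALDH1A3 converts, into ALDH+ and ALDH- cells, and poly-A RNA was sequenced in 15 libraries. Control mice were heterozygous for FoxO1, FoxO3 and FoxO4 according to the labels, whereas the study's methods describe wild-type alleles in the Rip-cre controls. Knockout (KO) mice carried floxed alleles of all 3 genes, which cre deletes in the cells where it is active. What a KO versus control difference compares therefore differs between these sources. The control libraries were 3 from ALDH- and 2 from ALDH+ cells, and the KO libraries were 5 from ALDH- and 5 from ALDH+ cells. The cre driver was Rip-cre, active in insulin-producing cells, in 9 libraries (control ALDH- replicates 1 and 2, control ALDH+ replicate 1 and KO replicates 1 to 3) and Pdx-cre, active in the pancreatic progenitors that also give rise to other islet and exocrine cells, in 6. All mice carried cre and an RFP reporter on a mixed 129J and C57BL/6 background, and the sorted Rip-cre mice were 6 months old, with 10 to 20 animals per genotype. No source used here says which animals went into which library, so p-values measure the spread between libraries, which may be partly technical.

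The libraries held between 7492220 and 10058043 fragments. Foxo1 was at 12.0 to 20.1 FPKM in control libraries and at 0.0925 to 4.24 in KO libraries, Foxo3 at 12.7 to 23.0 and 9.78 to 30.6, and Foxo4 at or below 1.34 in all, so that only Foxo1 checks the genotype labels at the level of RNA. Aldh1a3 was at 0.490 to 4.09 FPKM in ALDH- and at 22.1 to 76.9 in ALDH+ libraries. Iapp, which encodes a peptide secreted with insulin, was at 33196 FPKM or more in every library. The endothelial and stromal marker lists summed to at most 1.48 and 0.284 FPKM. Other lists were not near 0. Duct markers summed to 211 to 540 FPKM in ALDH- and 245 to 821 in ALDH+ libraries, with Krt7 at 82.6 or more and Spp1 at 100 or more in every library. Leukocyte markers summed to 49.7 to 148 FPKM in Pdx-cre ALDH- libraries, against at most 33.1 in Rip-cre ALDH- and 70.9 in ALDH+ libraries. Delta-cell markers (Sst and Hhex) summed to 8255 to 13646 FPKM in the 3 Pdx-cre ALDH- libraries and to 414 to 1038 in the 5 Rip-cre ALDH- libraries. Acinar markers reached 1434 FPKM in control ALDH+ replicate 2, which is Pdx-cre.

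A ribosome needs one copy of most of its proteins, and cells make them in step with each other. Their mRNAs begin with a 5' terminal oligopyrimidine (TOP) tract, a C followed by several C or T bases, through which the kinase mTOR and the RNA-binding protein LARP1 set their translation and stability when nutrients or growth signals change. In beta cells, ribosomes serve a very large output of insulin, and paralogs can take the place of their partner in some tissues.

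A stretch that matches such a tract is shown for 9 genes, because the tract is the sequence feature the family is known for. RefSeq promoter windows (GRCm38.p6, 250 bases before to 50 bases after the annotated start) were found for 63 of the 84 genes. A tract of at least 5 bases, a C followed by at least 4 bases that are each C or T, was searched on the transcribed strand within 10 bases of the start. It was present in 39 of these 63 genes (61.9%), against 9297 of 27025 genes with a window (34.4%), and it spanned 5 to 20 bases. The first 5 lines are genes with some of the smallest p-values in the ALDH comparison, and the last 4 are the canonical and paralog members of 2 pairs. Capitals mark the tract.
Rpl13a (chr7:45128722-45128751, minus strand): cgacaagaCCTCCTCCTTTCCCaggcggct
Rpl18 (chr7:45718064-45718093, plus strand): gcaggccgCTCTTTCCCCgcccactccggc
Rplp2 (chr7:141447639-141447668, plus strand): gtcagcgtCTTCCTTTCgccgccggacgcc
Rps19 (chr7:24884911-24884940, plus strand): gtggagggCTCTCCCacgcggtcaccacgc
Rpl39 (chrX:37085205-37085234, minus strand): aagctccgCCTCTagcgacttcttctaatc
Rpl22 (chr4:152324435-152324464, plus strand): tgttccagCTCCCactgacagaataaagca
Rpl22l1 (chr3:28805503-28805532, plus strand): agcccgttCTCTTCCCacggctgcagctca
Rps27 (chr3:90213629-90213658, minus strand): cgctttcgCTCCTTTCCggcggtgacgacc
Rps27l (chr9:66946079-66946108, plus strand): ccccgccgCCTCTatcccggaagttgctga
Paralogs and partners both carried such a tract in the Rpl22 and Rps27 pairs, which were shown for that reason. In the other pairs, Rpl36a had a tract and Rpl36al had none, and Rpl7l1 had none. Rps3 and Rps16, which are also among the 8 genes with the smallest p, had a window and no tract. Annotated starts can lie some bases away from the true one, so a gene in which the search found nothing may still have a tract. Equally, a marked stretch need not be a terminal tract. The stretches shown begin between 4 bases before (Rplp2 and Rpl39) and 7 bases after (Rpl22) the annotated start, and that of Rps19 begins 6 bases after it.

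The 84 genes covered a very wide range of levels. Rpl41, which encodes the smallest protein of the ribosome, was the most abundant with a mean of 3843 FPKM over the 15 libraries, followed by the paralog Rpl36al (1027) and by Rpl32 (944). At the other end of the 81 genes that passed a mean of 1 FPKM stood Rpl7l1 (11.2), Rps12 (12.2) and Rps15a (16.3). The levels of these 3 genes overlapped between libraries, so their order is not resolved. Rpl10l and Rpl39l were listed at 0 in every library, and Rpl3l, known as the muscle form of Rpl3, was at 0 in 12 libraries and at 0.0827, 0.127 and 0.342 FPKM in the other 3, which rest on 1, 1 and 3 fragments. FPKM divides by transcript length, but ribosomal protein genes have many processed pseudogenes and near-identical copies, and how reads shared between copies were counted is not given in the sources used here, so levels between genes are uncertain.

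The first question was how ALDH+ cells, which the study set out to characterise, compare with ALDH- cells. Ribosomal protein mRNAs were lower in ALDH+ cells. Summed over the 84 genes, they reached 19228 to 31853 FPKM in the 8 ALDH- libraries (median 25679) and 9940 to 19453 in the 7 ALDH+ libraries (median 17015), which is 4.78 to 6.17% and 3.14 to 4.81% of the FPKM of all usable genes. The ranges touched only through KO ALDH- replicate 2 and the 2 highest Pdx-cre ALDH+ libraries. Within each cre driver they did not overlap, with 19228 to 26452 against 9940 to 18177 in Rip-cre and 26669 to 31853 against 16866 to 19453 in Pdx-cre libraries, where delta-cell markers separated as well (8255 to 13646 against 752 to 2990). In bulk RNA, fewer cells of a type and less RNA per cell cannot be told apart, and FPKM gives a share of the RNA rather than an amount per cell.

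**Figure D1:**
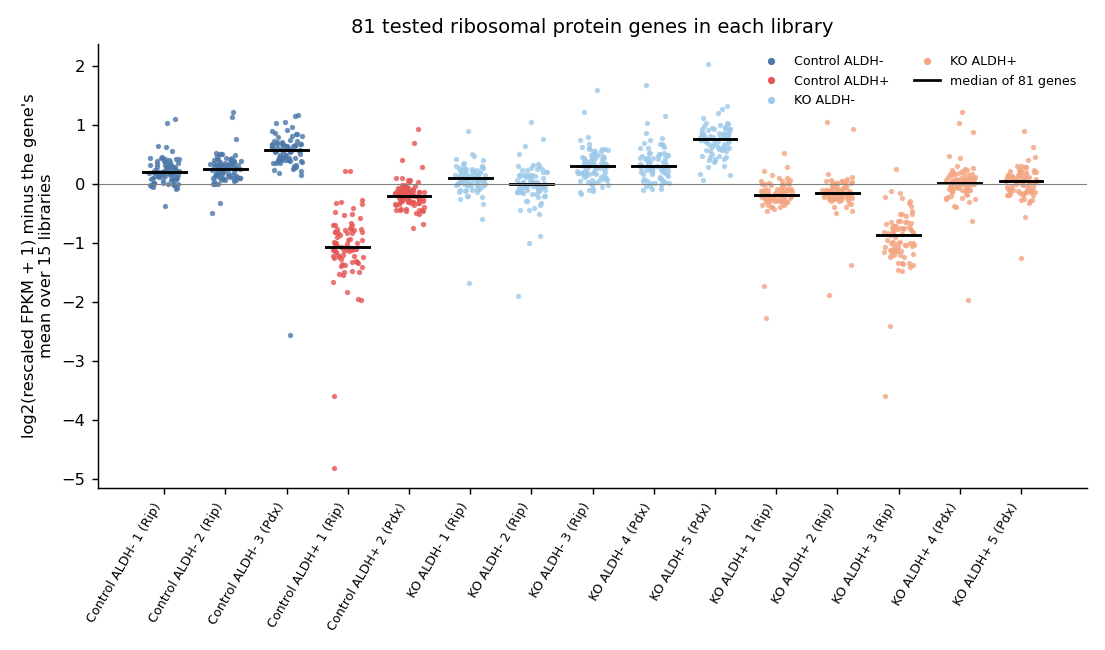
Each point is 1 of the 81 tested ribosomal protein genes in 1 library, as log2(rescaled FPKM + 1) minus that gene's mean over the 15 libraries, and the black bars are medians over the genes. Medians lie between -0.01 and 0.77 in the 8 ALDH- libraries and between -1.06 and 0.05 in the 7 ALDH+ libraries, with control ALDH+ replicate 1 (-1.06) and KO ALDH+ replicate 3 (-0.86) the lowest.

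A pair of ALDH+ libraries stood apart. In control ALDH+ replicate 1 and KO ALDH+ replicate 3, both Rip-cre, the genes summed to 9940 and 10334 FPKM, against 16866 to 19453 in the other 5 ALDH+ libraries. The same libraries had the lowest Iapp (33196 and 42521 FPKM, against 69597 or more elsewhere) and the highest Meg3 (258 and 263, against 140 or less elsewhere). Counts over the genes are given with and without them.

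All 81 genes had a lower mean in ALDH+ than in ALDH- cells when the difference was averaged over the genotypes, and 70 of them passed the test, all lower (limma on log2(rescaled FPKM + 1) with the cre driver as a term, Benjamini-Hochberg adjusted p under 0.05). The background was 3.77% of the 11253 genes tested called lower. The median difference was -0.78 on the log2 scale, against -0.02 over all genes. The large and the small subunit were set side by side without a test, with 40 of 46 Rpl genes called and a median of -0.77, and 27 of 31 Rps genes called and a median of -0.83. Across libraries, the ratio of summed Rpl to summed Rps FPKM (paralogs counted with their subunit) was 1.66 to 1.90 in ALDH- and 1.58 to 2.09 in ALDH+ cells, and the 2 highest values were those of the libraries that stood apart. The genes Rpl37, Rpl41, Rps19 and Rps27a (4 of 81) were lower in each ALDH+ library than in each ALDH- library, a pattern found in 0.293% of all genes.

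One library decided how many genes passed. Without control ALDH+ replicate 1, no ribosomal protein gene was called by limma (0 of 81), while 72 had an unadjusted p under 0.05 and the median stayed at -0.67, and no gene of the whole table was called lower either, so that none of the falls of single genes and lists in this comparison given below passed without it. Without both libraries that stood apart, the count was also 0, with 72 at an unadjusted p under 0.05 and a median of -0.56. Within cre drivers, the median was -0.92 in the 9 Rip-cre libraries, with 18 genes called against 0.899% of all genes called lower, and 77 at an unadjusted p under 0.05 against 10.4%. It was -0.63 in the 6 Pdx-cre libraries, with 0 called by limma against 0.00887% of all genes, and 46 at an unadjusted p under 0.05 against 4.02%.

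Among the genes lower in each ALDH+ library was Rps19, the gene most often mutated in Diamond-Blackfan anaemia. It was at 107, 104 and 102 FPKM in control ALDH-, 32.5 and 51.9 in control ALDH+, 109, 97.2, 127, 133 and 150 in KO ALDH-, and 76.8, 79.4, 34.8, 92.1 and 65.1 in KO ALDH+ libraries. The 2 ALDH classes did not overlap, and the difference was -1.13 ± 0.17 (SE, log2; adjusted p = 0.00383). In an exact permutation test of ALDH labels within genotype (two-sided, 2520 arrangements), Rps19 gave an unadjusted exact p = 0.000397, the smallest possible. That value restates the lack of overlap given above and is not separate evidence. Among the named genes put through the same test, Rpl39, Rpl41, Rps25 and Rps27a gave the same value.

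Rps27a, which is made as a fusion with ubiquitin and supplies the cell with it, was separated by a wider gap. It was at 68.6, 58.0 and 57.6 FPKM in control ALDH-, 23.1 and 38.2 in control ALDH+, 57.4, 58.8, 62.3, 79.95 and 79.6 in KO ALDH-, and 41.0, 40.9, 21.4, 41.8 and 42.9 in KO ALDH+ libraries. The ALDH classes again did not overlap, and in KO ALDH+ cells 4 libraries lay between 40.9 and 42.9 FPKM while replicate 3 was below them. The difference was -0.98 ± 0.15 (SE, log2; adjusted p = 0.00383). Rpl41 was at 5164, 4431 and 4921 FPKM in control ALDH- and at 1739 and 2659 in control ALDH+ cells, and at 4047, 3392, 5653, 5243 and 6000.4 in KO ALDH- and 3069, 3238, 1710.4, 3289.7 and 3093 in KO ALDH+ cells. All of its ALDH+ values lay below all of its ALDH- values, with a difference of -1.005 ± 0.19 (SE, log2; adjusted p = 0.00706).

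The mRNAs of the stalk proteins, which form the flexible arm of the large subunit that recruits elongation factors, were all lower. Rplp0, its base, fell by 0.60 ± 0.12, Rplp1 by 1.02 ± 0.21 and Rplp2 by 1.13 ± 0.18 on the log2 scale (SE; adjusted p = 0.0105, 0.0123 and 0.00504). The difference between them was not tested. Rplp2 was at 221, 227 and 224 FPKM in control ALDH- and 74.8 and 95.4 in control ALDH+ libraries, and at 228, 124, 242, 241 and 289 in KO ALDH- and 142, 143, 71.2, 122 and 170 in KO ALDH+ libraries. The KO ALDH classes overlapped through KO ALDH- replicate 2, which was low.

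Among proteins with known roles outside the ribosome, Rpl11 fell by 0.73 ± 0.15 (adjusted p = 0.0109), and Rpl5, its partner in the 5S particle that binds Mdm2 when ribosome assembly fails, had a difference of -0.44 ± 0.13 (adjusted p = 0.0517), just outside the threshold. Rps6, the substrate of the S6 kinases, fell by 0.62 ± 0.13 (adjusted p = 0.0128). Rpsa, which is also known as a laminin receptor, fell by 0.60 ± 0.14 and Rps26 by 0.56 ± 0.15 (adjusted p = 0.0163 and 0.0323). Rpl13a, which can leave the ribosome to silence inflammatory mRNAs, had the smallest p of all members, with -0.99 ± 0.14 (adjusted p = 0.00315), and Rpl38, known for its part in the translation of Hox mRNAs, fell by 1.11 ± 0.24 (adjusted p = 0.0125).

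The rest of the 8 genes with the smallest p were Rpl18 (-0.81 ± 0.12), Rps3 (-0.87 ± 0.13), Rpl39 (-1.12 ± 0.18) and Rps16 (-0.87 ± 0.14). Of the most abundant genes, Rpl32 fell by 0.87 ± 0.15, and of the least abundant, Rps15a fell by 0.87 ± 0.18 while Rps12 had -0.59 ± 0.17 (adjusted p = 0.0547). The smallest difference of a called gene was that of Rpl4, which was at 677 to 881 FPKM in ALDH- and 558 to 717 in ALDH+ libraries and fell by 0.38 ± 0.10. The genes that did not pass in the averaged comparison were Rpl5, Rpl7a, Rpl26, Rpl29, Rpl30, Rpl31, Rps3a, Rps12, Rps18, Rps27 and the paralog Rpl7l1.

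**Figure D2:**
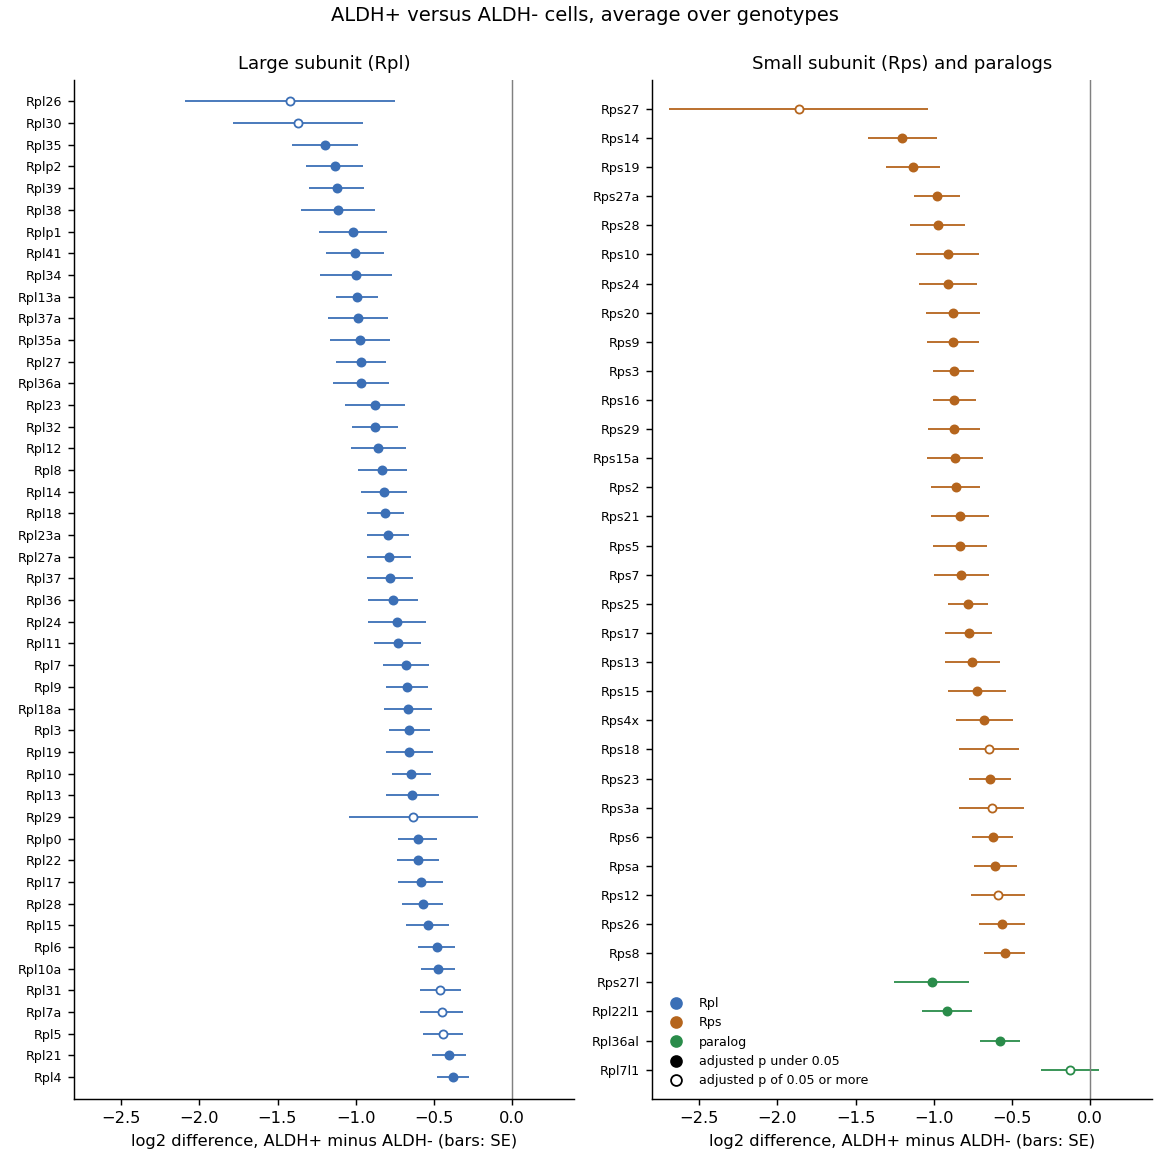
Log2 difference between ALDH+ and ALDH- cells, averaged over the genotypes, for 46 Rpl genes (left) and for 30 Rps genes and 4 paralogs (right), with standard errors as bars and filled points where the adjusted p was under 0.05. Every point lies below 0, most between about -1.2 and -0.4, and Rps27, Rpl26, Rpl30 and Rpl29 have the widest errors.

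Transcript length moved with the difference. Lengths were taken from the GENCODE basic annotation, as the median over the transcripts of a gene, and not from the deposited values. The 84 genes have a median transcript length of 772.5 bases, and 64 are under 1000 bases. Some lengths, such as those of Rps15a (5130 bases) and Rps20 (3706 bases), may not be that of the form measured here. Among genes under 1000 bases that are not members, 173 of 1077 were called lower and 14 higher, with a median of -0.33, against 178 lower and 227 higher of 9990 longer genes, with a median of 0.00. Members under 1000 bases had a median of -0.82 (n = 63) and longer members of -0.63 (n = 18), and the difference was less negative in longer members (Spearman's rho 0.47 over 81 genes measured in the same libraries, given as a description). Taking out the trend with length left 23 of the 81 genes called and a median of -0.42. As for the tract described above, 36 tested genes with one had a median of -0.84 and 24 with a window but no match had -0.73, a difference that was not tested.

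Other measures moved along with the ALDH class. The nuclear RNA Malat1 was at 230 to 1420 FPKM in ALDH- and 1801 to 4371 in ALDH+ libraries, Neat1 at 27.2 to 133 and 147 to 404, and Meg3 at 12.9 to 81.2 and 94.4 to 263, none of them overlapping. Kcnq1ot1 (0.562 to 3.29 and 2.47 to 6.53) and Snhg11 (0.594 to 12.7 and 9.23 to 45.8) overlapped. The summed level of 8 usable beta-cell markers of 10 was 84052 to 128161 FPKM in ALDH- and 35641 to 99680 in ALDH+ libraries (Ins1 and Ins2 were not usable), and this sum is nearly all Iapp. The other markers of the list had overlapping ranges that went both ways. They lay higher in ALDH+ libraries for Nkx6-1 (25.8 to 75.9 and 33.0 to 97.1 FPKM), Pdx1 (19.7 to 81.6 and 27.2 to 96.1) and Slc30a8 (28.8 to 230.3 and 37.4 to 272). They lay lower for Slc2a2 (9.21 to 227 and 8.61 to 144), Mafa (0.568 to 13.9 and 0.434 to 4.59) and G6pc2 (535 to 1878 and 313 to 1602). The range of Ucn3 was wider on both sides in ALDH+ libraries (150 to 703 and 69.9 to 795). In Pdx-cre libraries the hormone genes of other islet cells moved with the ALDH class too, with Gcg at 9533 to 35838 FPKM in ALDH- and 268 to 5822 in ALDH+, and Sst at 8245 to 13631 and 752 to 2981, while Ppy overlapped (1098 to 8978 and 127 to 2132). In Rip-cre libraries Gcg (667 to 888 and 154 to 1016) and Sst (412 to 1036 and 506 to 1297) overlapped, and Ppy did not (206 to 777 and 97.4 to 183). The part of length, of nuclear RNA, of Iapp and of other islet cells in the lower ribosomal protein mRNAs was not tested beyond the removal of the length trend.

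Genes outside the Rpl and Rps names were read from lists. Fau, whose product contains a small-subunit protein, fell by 0.89 ± 0.18, and Gnb2l1 (Rack1), a scaffold on the small subunit, fell by 0.58 ± 0.16. The value of Gnb2l1 was -1.10 ± 0.27 in control and -0.07 ± 0.18 in KO mice. Against the background of 3.77% of all genes called lower, the lists held the following counts, all of which were 0 without control ALDH+ replicate 1. Of 17 tested TOP mRNAs that encode no ribosomal protein, 3 fell and none rose, with a median of -0.35, and these were the elongation factor genes Eef1a1 (-0.67 ± 0.13) and Eef1g (-0.59 ± 0.10) and the initiation factor gene Eif3f (-0.60 ± 0.14). Of 76 mitochondrial ribosomal protein genes, 15 fell and none rose, with a median of -0.40. Of 43 ribosome biogenesis genes, 2 fell and none rose, a share near the background, with a median of -0.12. Without that library the medians were -0.30, -0.37 and -0.09 for the TOP, mitochondrial and biogenesis lists.

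Among 9 tested genes that act on the synthesis of ribosomal proteins, 2 rose and none fell, against 2.22% of all genes called higher. These were the S6 kinase genes Rps6kb1 (0.82 ± 0.18, adjusted p = 0.0155) and Rps6kb2 (1.62 ± 0.19, adjusted p = 0.00171), and Rps6kb2 was called in each genotype as well. Without control ALDH+ replicate 1, Rps6kb1 was at 0.86 ± 0.23 (adjusted p = 0.121) and Rps6kb2 at 1.63 ± 0.25 (0.0358), and without both libraries that stood apart they were at 0.80 ± 0.23 (0.167) and 1.54 ± 0.24 (0.0501). Mtor (0.11 ± 0.15), Larp1 (0.26 ± 0.12) and Myc (-0.04 ± 0.18) did not pass, nor did Rictor, Rptor, Mdm2 and Eif4ebp1. At an unadjusted p under 0.05 by limma, 6 of the 9 were higher and 1 lower, against 1000 and 1339 of 11253 genes. The list median was 0.32. Without control ALDH+ replicate 1, Rictor was at 0.67 ± 0.24, Rptor at 0.67 ± 0.24, Mdm2 at 0.36 ± 0.16 and Eif4ebp1 at -0.11 ± 0.14.

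In control mice alone, ALDH+ cells were again lower, with 25 of 81 genes called (13 Rpl, 11 Rps and Rpl22l1) and none higher, against 0.755% of all genes called lower. The median was -1.06. At an unadjusted p under 0.05, 77 were lower, against 8.62% of all genes. In 76 of 81 genes both ALDH+ libraries lay below the 3 ALDH- libraries, and the background of that pattern was 17.1%. Rpl13a (-1.38 ± 0.22, adjusted p = 0.0262), Rpl18 (-1.14 ± 0.19, 0.0298) and Rpl14 (-1.24 ± 0.24, 0.0350) had the smallest p. With 3 against 2 libraries, 1 of which stood apart, the count of called genes was 0 without control ALDH+ replicate 1, without any one of the 3 control ALDH- replicates, or with the 5 control libraries fitted alone. It was 1 without KO ALDH- replicate 1, 13 without KO ALDH+ replicate 4 or without KO ALDH+ replicate 5, and 53 without KO ALDH+ replicate 3. The median without control ALDH+ replicate 1 was -0.79.

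In KO mice, with 5 against 5 libraries, 80 of 81 genes had a lower mean in ALDH+ cells with a median of -0.50, and no member was called by limma (0 of 81, against 0.0178% of all genes called in either direction). At an unadjusted p under 0.05, 67 were lower and none higher, against 7.34% of all genes lower. In 8 genes all 5 ALDH+ libraries lay below all 5 ALDH- libraries (Rpl8, Rpl12, Rpl37, Rpl39, Rpl41, Rps19, Rps25 and Rps27a), against 0.96% of all genes. The smallest p-values were those of Rps27a (-0.84 ± 0.17, adjusted p = 0.119), Rps3 (-0.69 ± 0.15, 0.128) and Rps25 (-0.66 ± 0.15, 0.128). Rps25 was at 329, 307, 368, 343 and 454 FPKM in KO ALDH- and at 220, 228, 145, 261 and 295 in KO ALDH+ libraries, which do not overlap. Of the 81 tested genes, Rpl7l1 alone was on the other side of 0, at 0.03 ± 0.21. Without KO ALDH+ replicate 3 the median was -0.38 and 46 genes had an unadjusted p under 0.05. The median was -0.51 in the Rip-cre and -0.50 in the Pdx-cre libraries.

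The difference was numerically larger in control than in KO cells for 80 of 81 genes, but the test of that difference called none (0 of 81 by limma, against 0% of all genes). The median interaction was 0.51 on the log2 scale, and 16 genes had an unadjusted p under 0.05, all toward a smaller fall in KO cells, against 2.66% of all genes. Rpl28 (0.81 ± 0.26), Rpl14 (0.84 ± 0.29) and Rpl13a (0.78 ± 0.27) had the smallest p, with adjusted p = 0.998 for each. Rpl4 (-0.03 ± 0.21) was the gene on the other side. The number at an unadjusted p under 0.05 was 1 without control ALDH+ replicate 1, 42 without KO ALDH+ replicate 3 and 6 without both. With all libraries, other genes under 1000 bases had a median interaction of 0.29, and 82 of 1077 were higher at that p. Longer genes outside the family had a median of -0.01, with 199 of 9990 higher. The part of length in the interaction was not tested.

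**Figure D3:**
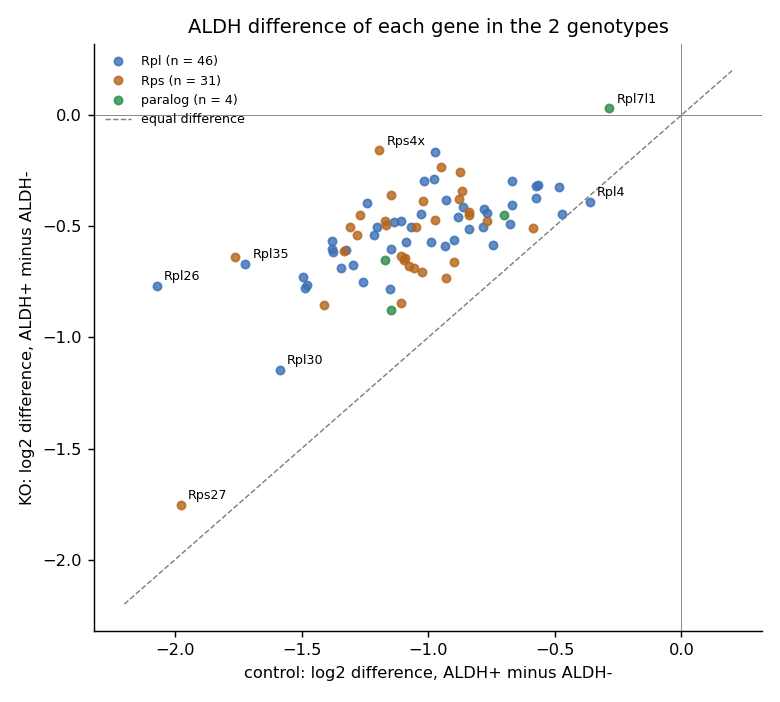
Log2 difference between ALDH+ and ALDH- cells in control (horizontal) and KO mice (vertical) for each of the 81 tested genes, coloured by subunit, with the dashed line where both would be equal. All but 1 point lie above the line, around medians of -1.06 in control and -0.50 in KO cells, and no gene passed the test of the difference between genotypes.

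The 2 genotypes were then set against each other within each ALDH class. In ALDH- cells no ribosomal protein gene differed by limma (0 of 81, against 0.0178% of all genes in either direction), the median was -0.11, and 4 genes had an unadjusted p under 0.05, all lower in KO cells (Rpl29, Rpl3, Rps3a and Rps4x), against 3.04% of all genes lower. In ALDH+ cells the median was 0.46, with 78 of 81 genes higher in KO cells and none called (0 of 81, against 0% of all genes), and 29 had an unadjusted p under 0.05, against 4.05% higher of all genes. Rpl28 (0.66 ± 0.20, adjusted p = 0.577) and Rpl18 (0.54 ± 0.18, 0.639) were among the genes with the smallest p. The control group here is 2 libraries, and without control ALDH+ replicate 1 the median was 0.20 and no member had an unadjusted p under 0.05. Without KO ALDH+ replicate 3 these were 0.56 and 51 members, and without both libraries 0.27 and 7. Short genes outside the family moved the same way between genotypes in ALDH+ cells with all libraries. Of those under 1000 bases, 127 of 1077 were higher at an unadjusted p under 0.05 by limma, with a median of 0.23. Of longer genes outside the family, 297 of 9990 were higher, with a median of 0.00. The part of length was not tested here.

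Rpl29, a large-subunit protein that also binds heparin, varied between libraries in a way of its own. It was at 337, 383 and 283 FPKM in control ALDH- and 190 and 209 in control ALDH+ libraries, and at 49.3, 40.6, 241, 365 and 232 in KO ALDH- and 46.6, 42.5, 119, 289 and 212 in KO ALDH+ libraries. Replicates 1 and 2 of both KO classes, all Rip-cre, were at 40.6 to 49.3 and every other library was at 119 or more, and these low values rest on 209 to 267 fragments each. The difference between KO and control ALDH- cells was -1.41 ± 0.54 (adjusted p = 0.801).

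The genes Rps27, Rpl26 and Rpl30 had wide spreads too, the last 2 of them named here after their values were seen. Rps27 was at 22.0 FPKM in control ALDH- replicate 3, 4.38 in control ALDH+ replicate 1, 29.2 in KO ALDH+ replicate 1 and 36.4 in KO ALDH+ replicate 4, and at 170 to 567 in the other 11 libraries. The lowest value rests on 8 fragments, and the low libraries include both drivers and both ALDH classes. Rpl26 was at 5.45 to 39.4 FPKM in ALDH- and 10.9 to 27.1 in 5 ALDH+ libraries, but had 0 fragments in the 2 that stood apart. Rpl30 was at 18.9 to 39.5 in ALDH- and 2.32 to 35.3 in ALDH+ libraries, lowest in the same 2. None of the 3 passed the averaged ALDH comparison (Rps27 -1.86 ± 0.83, Rpl26 -1.42 ± 0.67, Rpl30 -1.37 ± 0.42). With 1 library left out, the value of Rps27 ranged from -3.35 to -0.24.

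**Figure D4:**
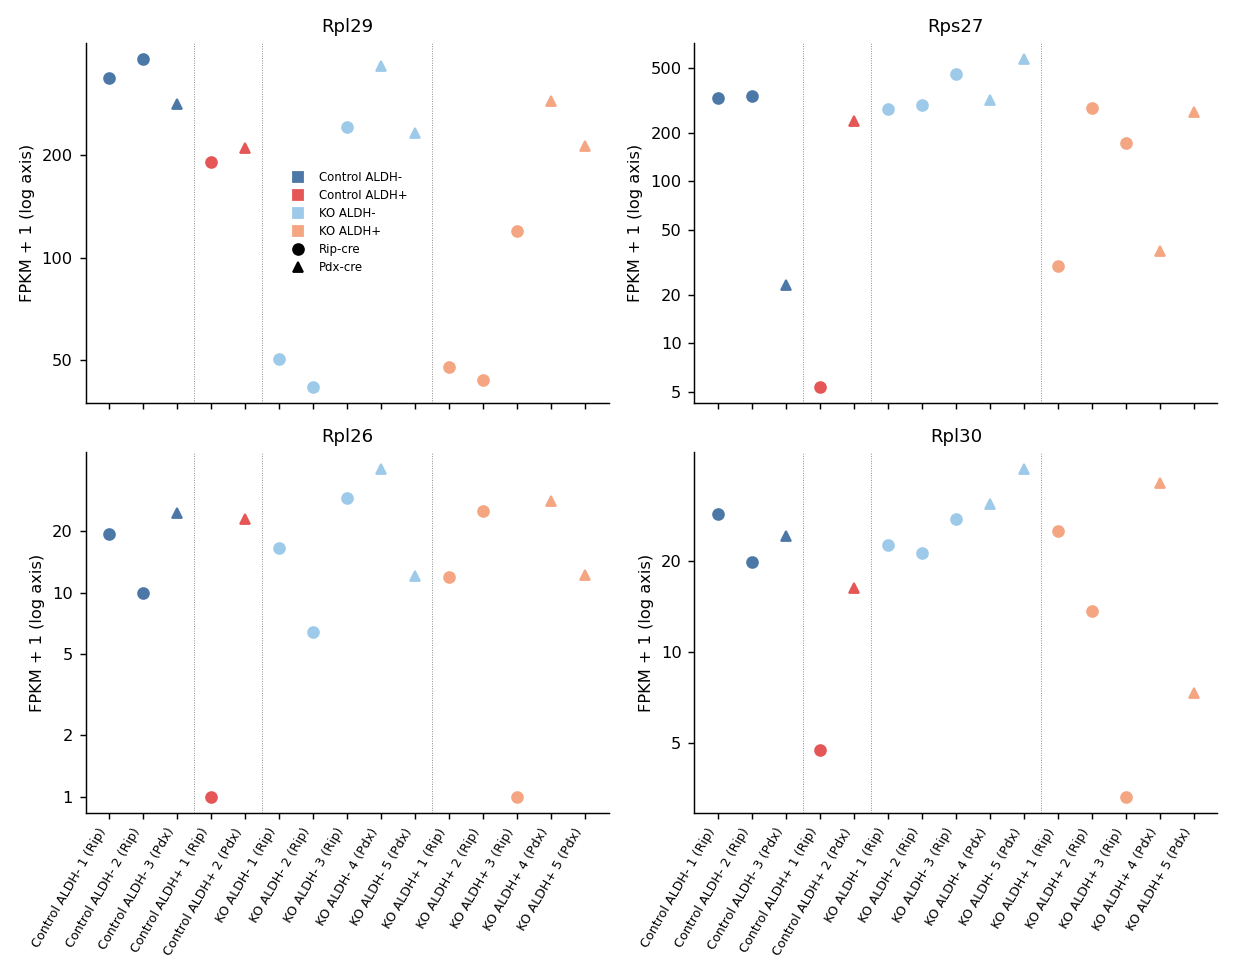
FPKM + 1 on a log axis in each library for Rpl29, Rps27, Rpl26 and Rpl30, with colours for the 4 groups, circles for Rip-cre and triangles for Pdx-cre. Rpl29 is low in KO replicates 1 and 2 of both ALDH classes, Rps27 in 4 libraries of 3 groups, and Rpl26 and Rpl30 in control ALDH+ replicate 1 and KO ALDH+ replicate 3.

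Paralogs were compared with their partners as the log2 ratio of FPKM + 1 within each library, which needs no scaling between libraries. The pairs that could be tested were 4, and the ratio of 3 of them differed between ALDH classes (exact permutation within genotype, two-sided, adjusted over the 4 pairs). This permutation did not take the cre driver into account. In each of these 3 pairs the gene with the shorter transcript had the larger fall, in the direction of the length trend described above (Rpl36a 483 and Rpl36al 757 bases, Rpl22l1 538.5 and Rpl22 2048 bases, Rpl7 1163 and Rpl7l1 1958 bases), and its part was not tested. Rps4l was not used because its listed form, Rps4y2, is a pseudogene in RefSeq, and Rps4y2 itself was at 6.22 to 21.6 FPKM in ALDH- and 10.1 to 24.1 in ALDH+ libraries.

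Rpl36al (mm9 chr12:70283721-70285054) was far above Rpl36a (chrX:131120193-131122601) in every library, with means of 1027 and 37.7 FPKM, and their proteins are nearly the same. Rpl36a was at 44.7, 38.7 and 38.0 FPKM in control ALDH- and 14.98 and 24.6 in control ALDH+ libraries, and at 40.6, 37.7, 53.6, 63.0 and 58.6 in KO ALDH- and 29.0, 30.6, 12.9, 42.8 and 35.9 in KO ALDH+ libraries. Rpl36al was at 876 to 1555 in ALDH- and 600 to 1162 in ALDH+ libraries. Both genes fell, Rpl36a by 0.97 ± 0.18 and Rpl36al by 0.57 ± 0.13, and the log2 ratio of paralog to partner was 4.63 ± 0.13 (SD, n = 8) in ALDH- and 4.98 ± 0.29 (SD, n = 7) in ALDH+ cells. The averaged difference was 0.39, higher in ALDH+ cells (exact p = 0.00119, adjusted p = 0.00476), and it was past the threshold whichever library was left out.

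Rpl22l1 (mm9 chr3:28704433-28706337) was also above its partner Rpl22 (chr4:151699987-151708180), with means of 212 and 56.5 FPKM. In many cells Rpl22 is known to hold Rpl22l1 down. Rpl22l1 was at 220, 253 and 249 FPKM in control ALDH-, 81.4 and 158 in control ALDH+, 183, 204, 357, 292 and 335 in KO ALDH-, and 182, 146, 141, 212 and 161 in KO ALDH+ libraries. It fell by 0.91 ± 0.16 (adjusted p = 0.00588) and Rpl22 by 0.60 ± 0.13 (adjusted p = 0.0159). Their log2 ratio was 1.97 ± 0.19 (SD, n = 8) in ALDH- and 1.70 ± 0.23 (SD, n = 7) in ALDH+ cells, a difference of -0.31 (exact p = 0.0218, adjusted p = 0.0291), which was -0.17 with exact p = 0.0972 without control ALDH+ replicate 1 and had exact p = 0.0569 without control ALDH- replicate 2 or without control ALDH- replicate 3.

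Rpl7l1 (mm9 chr17:46910856-46919605) did not pass the ALDH comparison, whereas Rpl7 (chr1:16091376-16094514) did. Rpl7l1 was at 10.9, 12.7 and 16.1 FPKM in control ALDH-, 13.3 and 9.49 in control ALDH+, 6.99, 7.15, 11.4, 14.5 and 12.9 in KO ALDH-, and 12.8, 9.20, 7.22, 11.4 and 12.0 in KO ALDH+ libraries. The classes overlapped throughout, with -0.13 ± 0.18 (adjusted p = 0.753), while Rpl7 fell by 0.68 ± 0.14 (adjusted p = 0.0131). The log2 ratio of Rpl7l1 to Rpl7 was -4.09 ± 0.30 (SD, n = 8) in ALDH- and -3.56 ± 0.37 (SD, n = 7) in ALDH+ cells, a difference of 0.55 (exact p = 0.0175, adjusted p = 0.0291), and without control ALDH+ replicate 1 it was 0.29 with exact p = 0.149. Without control ALDH- replicate 1 or without control ALDH- replicate 2 the exact p was 0.0688.

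Rps27l (mm9 chr9:66793925-66797316), a target of p53, was at 287, 323 and 273 FPKM in control ALDH-, 89.6 and 232 in control ALDH+, 280, 218, 378, 405 and 532 in KO ALDH-, and 198, 247, 92.2, 157 and 318 in KO ALDH+ libraries. It fell by 1.01 ± 0.24 (adjusted p = 0.0223). The difference of its log2 ratio to Rps27 was 0.89 with exact p = 0.395, and -0.13 without control ALDH+ replicate 1. The canonical partners of the silent paralogs all fell, Rpl39 by 1.12 ± 0.18, Rpl3 by 0.66 ± 0.13 and Rpl10 by 0.64 ± 0.13.

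**Figure D5:**
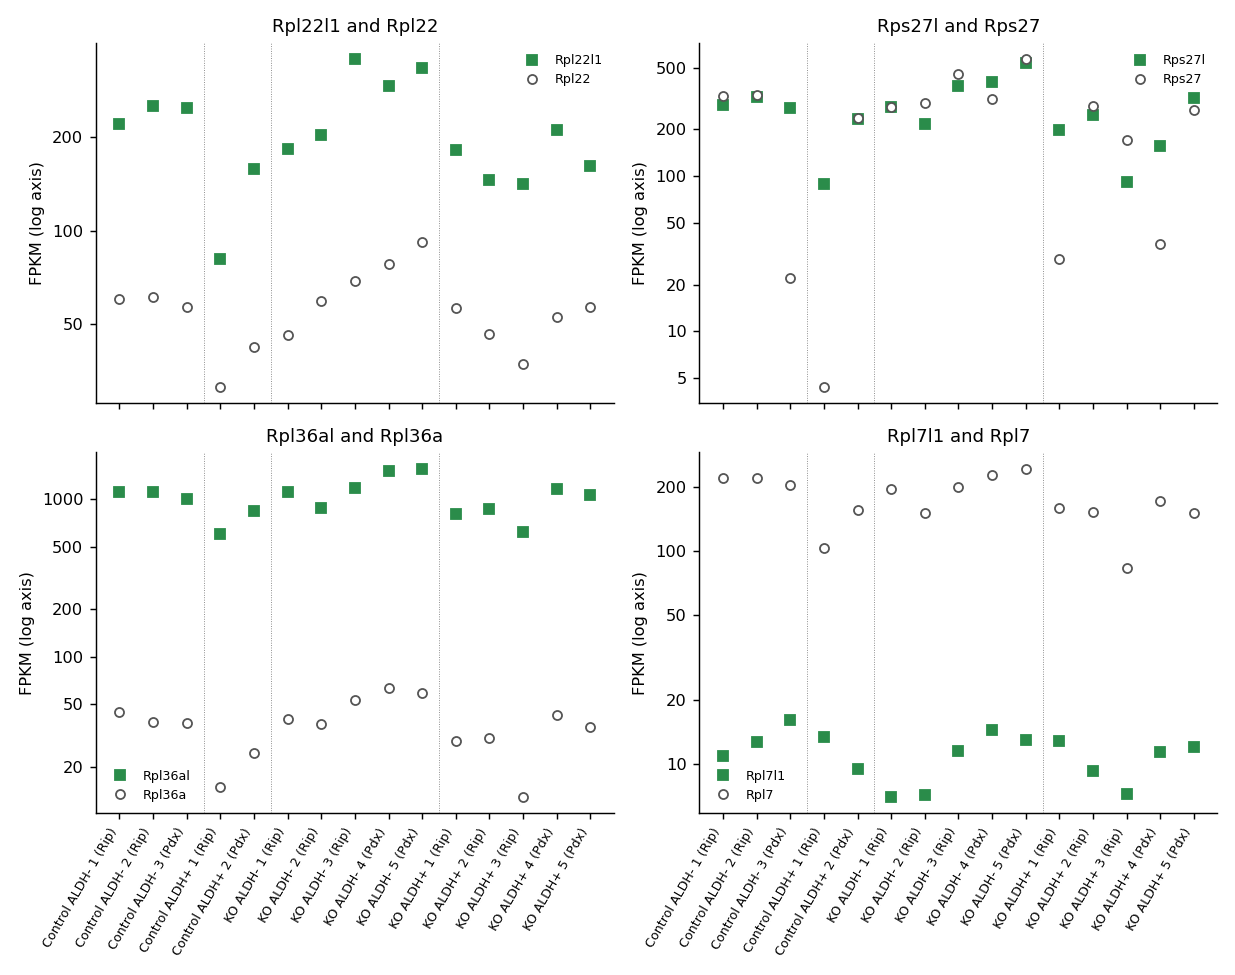
FPKM on a log axis of each paralog (green squares) and its canonical partner (open circles) in the 15 libraries, with dotted lines between the groups. Rpl36al and Rpl22l1 lie above their partners in every library (means 1027 against 37.7 and 212 against 56.5 FPKM), Rpl7l1 lies below Rpl7 throughout, and Rps27 lies far below Rps27l in 4 libraries.

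Libraries also differed by cre driver. All 81 genes had higher means in Pdx-cre than in Rip-cre libraries, with a median of 0.45 on the log2 scale, and 27 were called (12 Rpl genes, 14 Rps genes and Rpl36al), all higher, against 5.68% of all genes called higher. At an unadjusted p under 0.05, 70 were higher, against 13.7% of all genes. Rpl34 differed most clearly (1.22 ± 0.22, adjusted p = 0.00312), followed by Rpl13a (0.62 ± 0.13, 0.00715) and Rpl18 (0.52 ± 0.11, 0.00858). The count was 8 without the 2 libraries that stood apart, 9 without control ALDH+ replicate 1, 7 without control ALDH+ replicate 2 and 10 without KO ALDH- replicate 5. It was 17 without control ALDH- replicate 3 or without KO ALDH- replicate 1, and 14 without KO ALDH+ replicate 5. Delta-cell markers were higher in Pdx-cre ALDH- libraries, as given above, as were acinar markers (8 of 9 usable, 30.2 to 390.02 FPKM against 1.88 to 9.26 in Rip-cre ALDH- libraries), and other genes under 1000 bases had a median of 0.23 in this comparison. The part of these in the difference was not tested. The lowest value of all genes tested between drivers was that of Eif2s3y, a gene of the Y chromosome (-3.70). The sex of the mice was not examined. Cre driver cannot be told apart from the mice, their sex, ages and preparations that went with it.

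Whether the ALDH difference depended on the driver was tested as well. In the cre driver by ALDH interaction no member was called (0 of 81 by limma, against 0% of all genes), none had an unadjusted p under 0.05 in either direction, against 2.35% of all genes higher, and the median was 0.17. Rps27 (2.58 ± 1.49), Rpl7l1 (-0.56 ± 0.33) and Rps28 (0.52 ± 0.32) had the smallest p, each with adjusted p = 0.994.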

How the data were processed

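Poly-A RNA of sorted mouse islet cells was measured in 15 libraries, and the members and lists were chosen with earlier results of these data known. The authors deposited FPKM (fragments per kilobase of transcript, scaled to the mapped fragments of the library) for 23699 entries per library, with confidence intervals. The submitters' processing notes name bcl2fastq 1.8.4, TopHat2 2.0.4 and mm9. The study's methods test counts, which were not used here. Fragments were recovered from the intervals, and counting error limits low values.

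FPKM was rescaled between libraries by a trimmed mean (30% of ratios and 5% of levels). Genes with a mean of at least 1 were kept, and limma 3.58.1 (R 4.3.3) fitted log2(FPKM + 1), a scale that understates low genes, to the 4 groups and the cre driver with Benjamini-Hochberg adjustment. This method gave every adjusted p of a single gene. Exact permutation tests went through every arrangement of the ALDH labels within genotype (Python 3.11.15), without regard to the cre driver. Named were the 8 members with the smallest p in the averaged ALDH comparison and 3 per direction elsewhere, paralogs with their partners, the 3 most and 3 least abundant, and members of known role. The test was checked on simulated data with independent noise for each gene and library. That check does not cover genes that move together, a cre effect or a library that stands apart. Alternatives covered scaling, pseudocount, filter, cre term, blocks, length and left-out libraries. A few genes counted in the totals are not reported here by name.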

Additional observations from a re-analysis of the deposited data

Results flagged for a closer look

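Among 84 groups of 5 libraries (42 named genes in KO ALDH- and KO ALDH+ cells), 11 held a library farther from the rest than Dixon's 95% limit, where chance gives about 1 in 20 groups. Most of them were the low values of KO ALDH+ replicate 3, a library that stood apart in the summed FPKM as well. There Rpl3 was at 42.6 FPKM (67.3 to 75.5 in the other 4 libraries), Rpl32 at 494 (750 to 880), Rpl38 at 131 (318 to 423), Rpl41 at 1710.4 (3069 to 3290), Rpl7 at 83.2 (151 to 172), Rps27a at 21.4 (40.9 to 42.9) and Rpsa at 53.9 (79.3 to 87.5). These 7 values come from 1 library and are not independent of each other.

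The other 4 lay in 3 other libraries. Rps12 was at 16.3 FPKM in KO ALDH+ replicate 4, above 9.27 to 10.5 in the others. These values rest on only 51 fragments, and on 28 to 34 in the others. In KO ALDH- replicate 2, Rplp2 was at 124 below 228 to 289, while Rps18 was at 345 above 250 to 274. Rps6 was at 390 in KO ALDH- replicate 5, above 254 to 272. The cause was not tested.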

How the results depend on the processing

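The median ALDH difference of the genes stayed negative under every alternative run. The count of genes called in the averaged comparison (70) was 19 without the cre term, 18 in Rip-cre libraries only, 23 with the length trend removed (median -0.42), and 0 to 73 with 1 library left out. Settings chosen after seeing the data gave 0 without the 2 libraries that stood apart and 0 in Pdx-cre libraries only. Same-numbered libraries had correlations of -0.04 to 0.07 in their deviations over all genes, so the numbers were not taken to pair the samples, though Rpl29 was low in KO replicates 1 and 2 of both ALDH classes. With a replicate block the count was 1 on equal numbers and 40 within genotype and cre driver. In control mice the count (25) was 8 with no filter, 0 without the cre term, in Rip-cre only, in Pdx-cre only, with the compared groups only, with either replicate block, with the length trend removed or without the 2 libraries, and 0 to 53 with 1 library left out. Between drivers the count (27) was 16 with no filter, 12 with the length trend removed, 8 without the 2 libraries and 7 to 37 with 1 left out. Over all genes, calls in the averaged comparison went from 424 lower and 250 higher to 90 and 95 without the cre term. Rpl7l1 turned to 0.18 in Rip-cre only and 0.16 with the block on equal numbers, and ranged from -0.36 to 0.0893 with 1 library left out. Rps27 turned to 0.59 in Pdx-cre only. With 1 library left out, the paralog ratios ranged from -0.44 to -0.17 (Rpl22l1), 0.32 to 0.43 (Rpl36al), 0.29 to 0.81 (Rpl7l1) and -0.13 to 1.92 (Rps27l), and the replicate block gave 0.53 with exact p = 0.141 for Rpl7l1. Causes were not tested. Depth limits Rpl3l, Rpl26, Rpl30 and Rps12 (14 to 56 fragments per library), which rest on few fragments.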
